A study of Mus musculus with 28 samples.

Results

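The comparison described here sets mouse bone marrow cells that carried an empty retroviral vector and had been kept 4 days in cytokine medium against the same kind of marrow cells as freshly isolated. Its members are 4 of the 28 samples of the series, 2 cultured and 2 fresh libraries of bulk poly(A) RNA, and all 15224 genes that passed a filter on low counts out of 35267 in the table. Both groups came from C57Bl/6 marrow and started from cells positive for c-Kit, the receptor of stem cell factor, which marks haematopoietic stem and progenitor cells and also mast cells. The cultured cells were transduced, sorted for the green fluorescent protein (GFP) of the vector and then grown, while the fresh cells were neither transduced nor GFP-sorted nor grown. Vector, sort, medium and time therefore cannot be told apart, nor can any difference in source animals. The labels call the cultured cells differentiated c-Kit+ cells and name neither the cytokines nor the resulting cell type. Another group of the same table, cells transduced with the leukaemia fusion gene MOZ-TIF2 carrying a Ty1 tag (n = 2), was sorted and grown in the same way and is used only as a reference. Replicates are numbered samples, and since nothing says that they came from separate mice, p-values measure only the spread between these samples, which may be technical.

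Mast cells arise from marrow progenitors under stem cell factor and interleukin-3. They store proteases, serotonin and histamine in granules on a serglycin matrix, and release them when allergen crosslinks IgE on the high-affinity receptor FcεRI. Their identity depends on the transcription factors GATA2 and MITF together with signals from KIT, and basophils and mast cells share several of these genes.

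Values are given as CPM, the counts of a gene relative to the scaled total of its library, with the 2 cultured libraries named before the 2 fresh ones, replicate 1 first. An SE given with a log2 difference is back-calculated as its absolute value divided by the square root of edgeR's F statistic. It is not the spread between replicates. Library totals were 23656631 and 34260108 estimated counts for the cultured cells and 12397486 and 15550960 for the fresh cells, so low genes are measured more loosely in the fresh group. Replicates correlated at 0.954 (cultured) and 0.975 (fresh) over log2 values of tested genes, and 145 of 9072 genes with at least 10 CPM differed over 4-fold between the cultured replicates, against 26 of 8925 between the fresh ones. Transcripts of the mitochondrial genome took 4.17% and 1.22% of counts in the cultured libraries and 3.45% and 3.25% in the fresh ones. The Y-linked genes Eif2s3y (55.0 and 3.55 CPM) and Ddx3y (24.3 and 2.21 CPM) were read in the fresh libraries, more in replicate 1, and had no counts in the cultured libraries, whereas the Y-linked Kdm5d read 3.84 and 4.35 CPM in cultured cells and 15.8 and 5.72 CPM in fresh cells. The labels do not give the sex of the source animals. A difference in source animals between the groups cannot be told apart from culture, and its part in the results was not tested.

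The cultured cells held high levels of mast cell RNA and little RNA of the erythroid, B lymphoid and late neutrophil genes found in fresh cells. Genes of mast cell proteases, of the FcεRI chains and of serotonin synthesis rose, while those of haemoglobin synthesis, B cells and late neutrophil granules fell. Of 15224 genes, 6198 differed by edgeR's quasi-likelihood test at a Benjamini-Hochberg adjusted p under 0.05 (40.7%), with 3195 higher in cultured cells (21%) and 3003 lower (19.7%). The groups did not overlap for 78.2% of tested genes, called or not. The difference exceeded 1 on the log2 scale for 5267 of these genes and 3 for 2084. Counts of a gene list are to be read beside the 21% higher and 19.7% lower of all tested genes. The median log2 difference over all tested genes was -0.03. With library totals alone as the scale that median was -0.37 and 35.2% of called genes were higher, in place of 51.5%. Upper-quartile scaling gave -0.25 and 41.4%. Leaving out a cultured or fresh library leaves that group with 1 sample, and the part of this in the lost calls was not tested. The number called then fell. It was 740 higher and 519 lower without fresh replicate 1, 946 and 609 without fresh replicate 2, and 2084 and 1626 without cultured replicate 1. The plot of difference against level shows how far the mast cell genes lie from the rest.

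**Figure D1:**
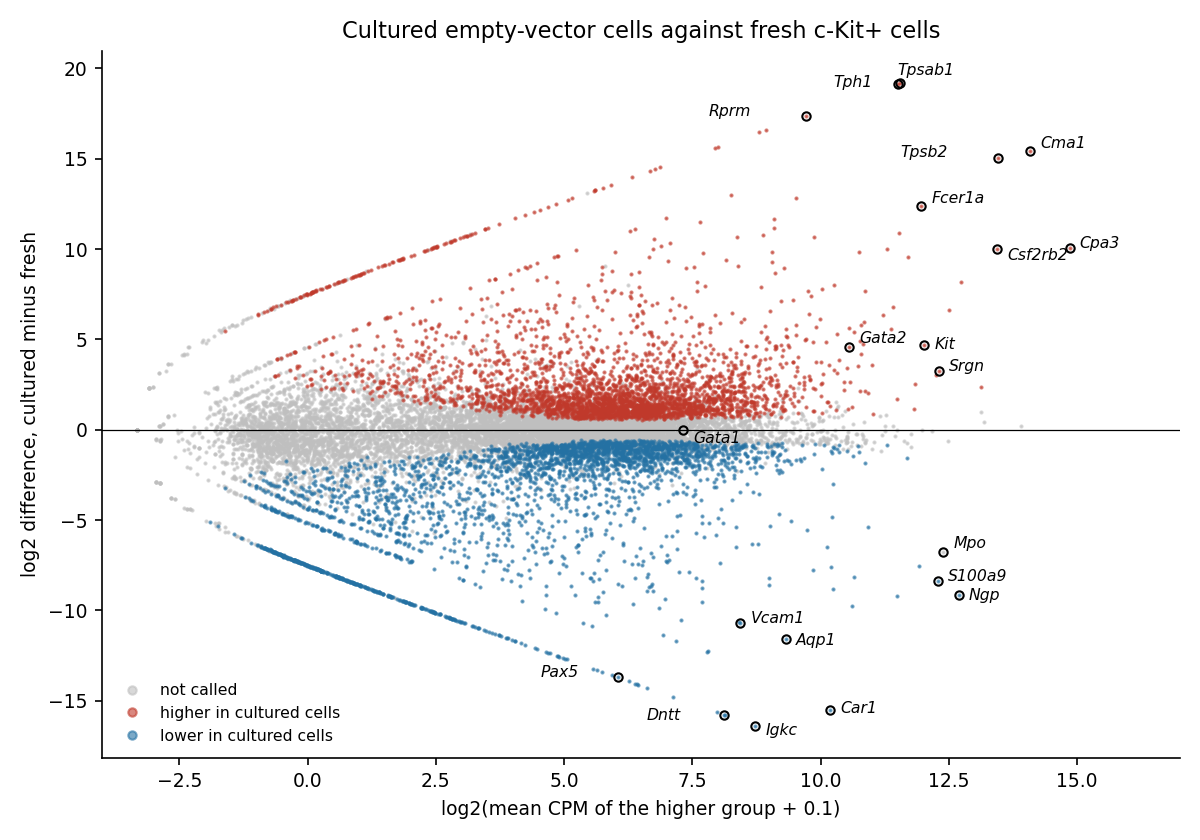
Log2 difference (cultured minus fresh) of the 15224 tested genes against the log2 of the mean CPM of the higher group plus 0.1, with genes called higher in red, lower in blue and others in grey. Cma1, Tpsb2, Tph1 and Fcer1a lie at the upper right with differences over 12, and Car1, Igkc and Dntt at the lower edge below -15, while Gata1 lies on the zero line. Genes without counts in a group, such as Tph1, Igkc and Dntt, are drawn at the fitted difference, which is not a measured fold. Their bounds are given in the text.

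Genes of the mast cell granule proteases held a large share of counts in the cultured libraries. The 15 proteases listed took 4.36% and 6.57% of all cultured counts and 0.0538% and 0.064% of fresh counts. Of 13 that were tested, 10 rose and 1 fell (7 and 6 rose without fresh replicates 1 and 2), with a median log2 difference of 9.85. In bulk RNA more mast cells and more RNA per mast cell cannot be told apart. Cpa3, carboxypeptidase A of the mast cell granule, read 22819 and 36330 CPM in cultured cells and 29.6 and 25.0 CPM in fresh cells (log2 difference 10.08, SE 1.00, edgeR adjusted p = 0.00164). Cma1, the chymase mMCP-5, read 16497 and 18052 CPM against 0.369 and 0.407 CPM (15.42, SE 1.12, adjusted p = 0.000804). For both genes every cultured library stood far above every fresh one.

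The tryptases were less even between the cultured replicates. Tpsb2, the tryptase mMCP-6, read 7205 and 15308 CPM against 0.516 and 0.175 CPM (15.03, SE 1.27, adjusted p = 0.00107). Tpsab1, the related tryptase mMCP-7, read 3.39 and 5786 CPM and had no counts in fresh cells. Cultured replicate 2 alone was high for Tpsab1, so its value is uncertain (edgeR adjusted p = 0.0414). Whether the authors' counting split reads between the 2 related genes was not tested. That call was lost without either fresh library, without cultured replicate 2, without either MOZ-TIF2 library and with the 4 cultured and fresh libraries alone. Tpsg1, the membrane-bound tryptase, read 373 and 518 CPM with none in fresh cells, at least 4564-fold higher against a floor of 3 counts over the fresh group (0.0976 CPM). Mcpt4, a chymase of connective tissue mast cells, read 24.5 and 191 CPM against 2 counts in all fresh cells, a ratio of 1860 (95% counting interval 515 to 15400). Gzmb, granzyme B, read 2135 and 1281 CPM against 2.21 and 1.51 CPM (9.85, SE 0.60, adjusted p = 0.000644). Of the proteases that go with other cells, the neutrophil and mast cell protease cathepsin G (Ctsg) fell from 369 and 455 CPM to 21.1 and 55.7 CPM (-3.42, adjusted p = 0.0113). The calls of Mcpt4 and Ctsg were lost without either fresh library.

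**Figure D2:**
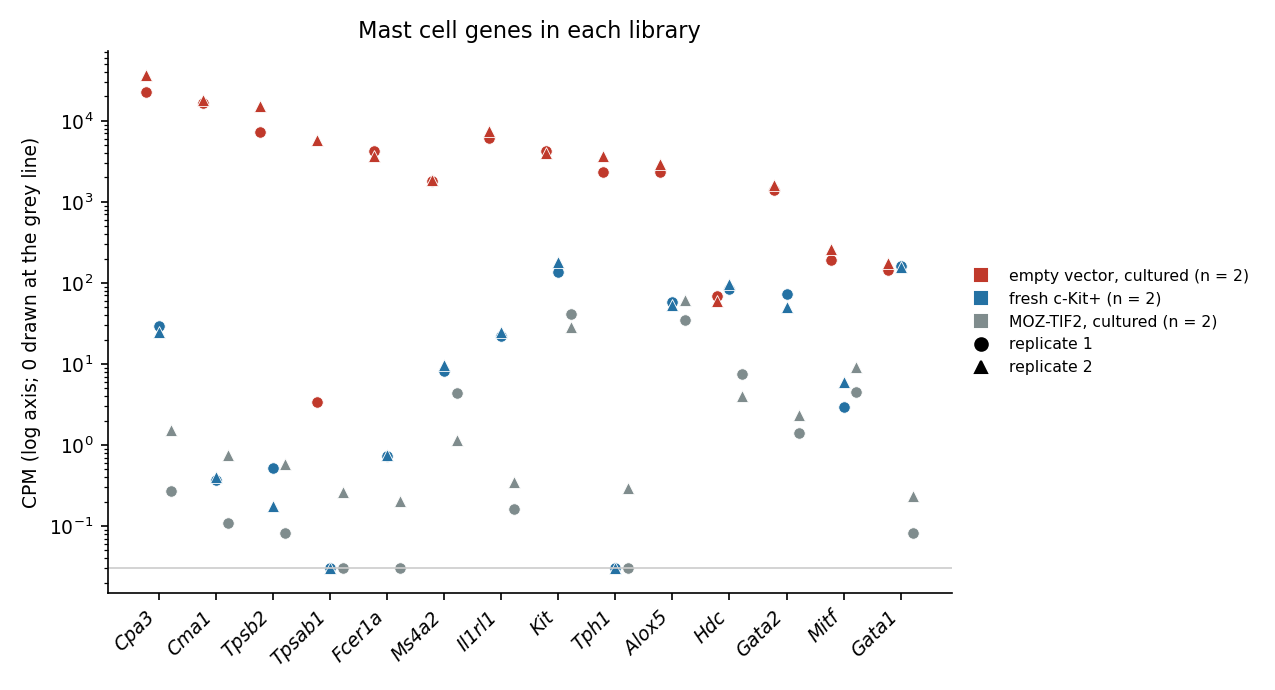
CPM on a log axis of 14 mast cell genes in each library, with cultured empty-vector cells in red, fresh cells in blue, MOZ-TIF2 cells in grey, replicate 1 as circles and replicate 2 as triangles; libraries without counts are drawn on the grey line. The red points stand above the others for 12 genes, Tpsab1 has 1 red point at 3.39 CPM, and Hdc and Gata1 are close to the fresh level.

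The IgE receptor and the signalling proteins behind it rose with few exceptions. All 20 genes of the receptor and signalling list were tested, of which 19 rose and none fell (10 and 11 rose without fresh replicates 1 and 2), with a median of 6.62, or 5.88 with genes absent from fresh cells set at their bound. Fcer1a, the IgE-binding chain, read 4299 and 3683 CPM against 0.738 and 0.757 CPM (12.37, SE 0.73, adjusted p = 0.000624). Ms4a2, the β chain that amplifies its signal, read 1833 and 1875 CPM against 8.26 and 9.84 CPM (7.68, SE 0.74, adjusted p = 0.0015). Fcer1g, the γ chain shared with other Fc receptors, already stood at 142 and 127 CPM in fresh cells and read 527 and 624 CPM in cultured cells (2.10, SE 0.43, adjusted p = 0.0131). All 3 chains were higher in both cultured libraries than in either fresh one. The fitted differences of the 3 chains were not tested against each other. Syk, a kinase of IgE receptor signalling, read 247 and 199 against 172 and 167 CPM and was the member that was not called (0.40, edgeR adjusted p = 0.409). The call of Fcer1g was lost without either fresh library.

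Receptors through which mast cells sense cytokines and other mediators rose as well. Il1rl1, the interleukin-33 receptor ST2, read 6172 and 7383 CPM against 22.4 and 24.6 CPM (8.17, SE 0.46, adjusted p = 0.00061). Kit, by whose protein the starting cells were chosen, read 4269 and 4003 CPM against 138 and 181 CPM (4.70, SE 0.35, adjusted p = 0.000837), so the cultured libraries lay above both fresh ones. Cd200r3, an activating receptor of mast cells and basophils, read 577 and 677 CPM against 0.893 and 1.62 CPM (8.94). Adora3, the adenosine A3 receptor, read 236 and 338 CPM against 0.516 and 0.349 CPM (9.38), and the histamine receptor Hrh4 read 35.6 and 39.5 CPM against 1 count in fresh cells. Mrgprb2, the receptor for cationic peptides and drugs on connective tissue mast cells, was present in cultured cells only, with 1.58 CPM in replicate 1 and 49.4 CPM in replicate 2 (adjusted p = 0.0431). Its level rested on cultured replicate 2, and the call was lost without that library and without either fresh one.

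Most genes of mediator synthesis rose. Of 18 listed mediator genes 17 were tested, 14 rose and 1 fell (9 rose without either fresh library), with a median of 4.37. For serotonin, Tph1, its rate-limiting enzyme outside the brain, read 2340 and 3633 CPM with no counts in fresh cells, at least 30600-fold higher. Ddc, the next enzyme, read 103 and 123 CPM against 0.664 and 1.04 CPM (7.01, SE 0.32, adjusted p = 0.000418). Slc18a2, the vesicle pump that loads amines into granules, read 1264 and 1178 CPM against 4.20 and 5.12 CPM (8.03), and Maob, which breaks amines down, read 357 and 740 CPM against 0.295 and 0.175 CPM (11.19). Hdc, which makes histamine, did not move with them: it read 69.7 and 60.3 CPM in cultured cells and 83.0 and 97.4 CPM in fresh cells (-0.47, SE 0.32, adjusted p = 0.27). Every cultured library lay above the fresh ones for the 4 amine genes before it, and below them for Hdc.

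For the lipid mediators, Alox5, the 5-lipoxygenase of leukotriene synthesis, read 2319 and 2957 CPM against 58.6 and 53.4 CPM (5.56, SE 0.42, adjusted p = 0.000864). Alox5ap, its partner, rose by 2.47 and Ltc4s, leukotriene C4 synthase, by 3.70. Hpgds, prostaglandin D2 synthase, rose by 3.19 and the constitutive cyclooxygenase gene Ptgs1 by 2.67, whereas Ptgs2, the inducible one, fell from 6.20 and 2.97 CPM to 0.812 and 0.346 CPM (-2.99, adjusted p = 0.0208). Srgn, the serglycin core of the granule matrix, was abundant in both groups, with 5109 and 5037 CPM against 493 and 563 CPM (3.26, adjusted p = 0.00412), and Ndst2, which sulphates its heparin chains, rose by 4.43. Among the cytokines of mast cells, Il6 read 32.7 and 24.6 CPM against 0.516 and 0.116 CPM (6.54). Il13 stayed near 3.5 CPM and Il4 at 7.36 and 3.49 CPM, with none and under 0.3 CPM in fresh cells. Srgn, Ltc4s, Hpgds, Il4, Il13 and Ptgs2 were no longer called without either fresh library, Ptgs2 also without cultured replicate 2 and Hpgds also without cultured replicate 1.

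Promoters of these genes were searched for the letters that GATA factors bind, because Gata2 was among the transcription factors that rose. RefSeq sequences (GRCm38.p6) of the 250 bases before the start site were scanned on both strands for AGATAA or AGATAG or TGATAA or TGATAG, forms that share the core GATA. Of all 32851 promoter windows in the table, 8718 held at least 1 match (26.5%). Of the 20 receptor and signalling genes 16 had a window and 11 of these held a match, and of the 18 mediator genes 16 had a window and 8 held one. Matches also stood in other sets. Of tested genes, 10642 had a window and 21.6% of these held a match, with 21.3% among genes called higher and 22.3% among genes called lower. Of the 20 erythroid genes, all of which fell, 14 had a window and 10 held a match. Of 17 cytokine and chemokine genes with a window 9 held one, and of 11 proteases 6. In these last sets and among tested genes fewer than 80% had a window, so as a check of shares they are void. A gene was counted if any of its windows held a match, whereas 26.5% is a share of windows. These measures are unlike, so nothing is drawn from the receptor and mediator counts or from the other sets. The 5 promoters below were chosen after the search from highly expressed genes that hold a match. Kit, also among the 15 genes with most counts in cultured cells, held none in either of its 2 windows. The sequences are written 5′ to 3′ on the gene's strand up to the base before the start, and show matches on either strand in capitals. 
Cpa3, chr3:20242182-20242431, minus strand: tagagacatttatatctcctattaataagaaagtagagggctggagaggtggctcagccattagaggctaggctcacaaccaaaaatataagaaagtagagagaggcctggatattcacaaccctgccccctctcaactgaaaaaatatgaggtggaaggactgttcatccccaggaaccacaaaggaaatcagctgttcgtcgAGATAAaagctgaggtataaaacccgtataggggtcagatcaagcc
Cma1, chr14:55944676-55944925, minus strand: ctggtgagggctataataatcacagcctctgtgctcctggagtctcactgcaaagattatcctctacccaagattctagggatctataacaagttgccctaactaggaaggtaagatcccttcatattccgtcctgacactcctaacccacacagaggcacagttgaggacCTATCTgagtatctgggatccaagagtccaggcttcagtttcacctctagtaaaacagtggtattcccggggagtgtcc
Fcer1a, chr1:173227230-173227479, minus strand: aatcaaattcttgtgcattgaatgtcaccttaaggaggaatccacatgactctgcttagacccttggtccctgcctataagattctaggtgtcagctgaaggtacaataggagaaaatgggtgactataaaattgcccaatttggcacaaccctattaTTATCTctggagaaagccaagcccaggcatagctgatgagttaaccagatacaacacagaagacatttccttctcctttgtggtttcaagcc
Ms4a2, chr19:11623720-11623969, minus strand: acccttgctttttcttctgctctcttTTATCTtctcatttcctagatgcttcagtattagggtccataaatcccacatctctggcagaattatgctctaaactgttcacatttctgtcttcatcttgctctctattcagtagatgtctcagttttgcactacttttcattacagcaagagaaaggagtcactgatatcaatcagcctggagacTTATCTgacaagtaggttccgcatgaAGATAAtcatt
Csf2rb2, chr15:78305722-78305971, minus strand: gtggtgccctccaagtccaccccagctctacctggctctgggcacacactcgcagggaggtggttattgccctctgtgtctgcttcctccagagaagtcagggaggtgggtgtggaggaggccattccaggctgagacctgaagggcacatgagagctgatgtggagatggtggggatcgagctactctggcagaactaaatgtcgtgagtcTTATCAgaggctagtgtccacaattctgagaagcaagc
Counted from the base before the start as -1, the first base of the match was at -46 in Cpa3, -79 in Cma1, -92 in Fcer1a and -38 in Csf2rb2, while Ms4a2 had 3, at -224, -37 and -11. A match gives the letters only and does not show that a factor binds there.

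The transcription factors of mast cells rose selectively. Of 14 tested regulators of the mast and erythroid lineages 7 rose and 3 fell, with a median of 1.43. Gata2, which mast cells and stem cells use, read 1410 and 1602 CPM against 73.6 and 51.2 CPM (4.59, SE 0.38, adjusted p = 0.00103). Mitf, which drives mast cell proteases, read 193 and 264 CPM against 2.95 and 5.99 CPM (5.66, SE 0.55, adjusted p = 0.0015). Gata1, needed by erythroid cells and mast cells alike, read 143 and 174 CPM against 163 and 157 CPM (-0.02, SE 0.29, adjusted p = 0.97), so the fresh values lay within the cultured range. Its erythroid partners fell: Zfpm1, the cofactor FOG-1, from 360 and 261 CPM to 23.7 and 18.4 CPM (-3.88, adjusted p = 0.00248), and Lmo2, a bridging protein of the erythroid complex, from 256 and 240 CPM to 27.3 and 28.0 CPM (-3.16, adjusted p = 0.00234). FOG-1 is known to hold back mast cell fate in progenitors. Bhlhe40 (5.23), Runx1 (2.77) and the homeobox gene Meis2 (2 fresh counts, ratio 337 with a counting interval of 93.0 to 2790) rose, and Tcf4, a factor of plasmacytoid dendritic and B cells, fell by 3.23. No call named here was lost when 1 library was left out.

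Basophil genes were called in both directions, with shares to be read beside the 21% higher and 19.7% lower of all tested genes. More eosinophil genes fell than rose. The summed basophil list was higher in cultured cells (4928 and 3862 CPM against 682 and 674 CPM). Of 14 basophil genes 4 rose and 2 fell (1 fell without fresh replicate 2; median 0.46), and the 4 that rose (Gzmb, Cd200r3, Cd63 and Il3ra) are shared with mast cells. Mcpt8, the basophil protease mMCP-8, read 61.0 and 23.4 CPM against 25.0 and 24.7 CPM (0.76, adjusted p = 0.269). Prss34, a second basophil protease, read 109 and 14.1 CPM against 33.0 and 42.4 CPM (0.70, adjusted p = 0.562). For both, cultured replicate 1 was the highest library and cultured replicate 2 the lowest. Of 11 tested eosinophil genes 6 fell and 1 rose (2 and 1 fell without fresh replicates 1 and 2), with a median of -3.60. Epx, eosinophil peroxidase, fell from 44.8 and 153 CPM to 0.860 and 0 CPM (-7.97, adjusted p = 0.00723, not called without fresh replicate 2). Il5ra, the interleukin-5 receptor, was the gene that rose, from 1.03 and 1.11 CPM to 6.57 and 7.09 CPM (2.67, adjusted p = 0.0114), a call lost without either fresh library.

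Granulocyte genes fell. Of 18 secondary granule and late neutrophil genes 13 fell and none rose (6 and 7 fell without fresh replicates 1 and 2), with a median of -5.86, and their summed level went from 27800 and 25530 CPM in fresh cells to 1202 and 2064 CPM. Ltf, lactoferrin, read 0.573 and 9.06 CPM in cultured cells and 3026 and 2702 CPM in fresh cells (-9.20, adjusted p = 0.0144). Ngp, the neutrophilic granule protein, was among the 15 genes with most counts in fresh cells (6716 and 6475 CPM) and read 0.908 and 22.7 CPM after culture. S100a8 read 21.4 and 19.7 CPM against 3992 and 3748 CPM (-7.56, adjusted p = 0.00134). Lyz2, lysozyme M of granulocytes and macrophages, was not called, with 913 and 1701 CPM against 2284 and 1920 CPM. Ltf and Ngp were no longer called without either fresh library.

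The primary granule genes of promyelocytes fell too, with a wide gap between the cultured replicates. Of 14 listed genes 13 were tested, 9 fell and 2 rose (4 fell without either fresh library), with a median of -4.41. Mpo, myeloperoxidase, read 0.0955 CPM in cultured replicate 1 and 99.9 CPM in replicate 2, against 4510 and 6180 CPM in fresh cells. Both cultured libraries lay below both fresh ones, but Mpo did not pass the test (-6.74, SE 2.28, edgeR adjusted p = 0.0575). Mpo was called by DESeq2, with library totals as the scale, without the filter on low counts and without either cultured library. Elane, neutrophil elastase, read 0 and 24.7 CPM against 886 and 1348 CPM (-6.49, adjusted p = 0.0468), and Prtn3, proteinase 3, read 0.478 and 36.1 CPM against 733 and 979 CPM (-5.54, adjusted p = 0.0402). Fcnb, ficolin B, was evenly low at 0.0478 and 0.449 CPM against 185 and 227 CPM (-9.54, adjusted p = 0.000802). The 2 that rose were Cst7 (cystatin F, 2.72) and Serpinb1a (2.65), inhibitors of granule proteases that mast cells also make. Elane, Prtn3, Cst7 and Serpinb1a lost their calls without either fresh library.

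Regulators of granulocyte and monocyte fate followed in part. Of 14, 6 fell and 1 rose (4 and 3 fell without fresh replicates 1 and 2, and 4 without cultured replicate 1), with a median of -0.96. Cebpe, the C/EBP factor of terminal granulocyte maturation, read 0.621 and 0.346 CPM against 69.0 and 74.7 CPM (-7.24, SE 0.51, adjusted p = 0.000765). Cebpa, which opposes mast cell fate in progenitors, fell from 41.3 and 48.7 CPM to 9.46 and 12.4 CPM (-2.04, adjusted p = 0.00582, not called without fresh replicate 2), and Irf8, the monocyte and dendritic cell factor, fell from 151 and 144 CPM to 17.8 and 8.33 CPM (adjusted p = 0.00553). Spi1, which encodes PU.1 and is used by mast cells as well, read 134 and 105 against 150 and 133 CPM and was not called (-0.24). Id2 was the gene that rose, from 39.5 and 34.1 CPM to 456 and 417 CPM (3.57, adjusted p = 0.00321).

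Monocyte and macrophage genes were mixed. Of 25, 9 fell and 2 rose (4 and 5 fell, and 1 rose, without fresh replicates 1 and 2), with a median of -0.57. Ly6c2, the surface marker of inflammatory monocytes, fell from 463 and 566 CPM to 9.58 and 16.3 CPM (-5.31, adjusted p = 0.00106). Vcam1 and Apoe, high in marrow macrophages, fell and differed by -10.70 and -6.32 (adjusted p = 0.00179 and 0.00266). Csf1r, the M-CSF receptor, stayed at 94.2 and 90.3 CPM against 85.8 and 89.5 CPM and was not called (0.07, adjusted p = 0.943). Complement C1qa still read 80.2 and 61.7 CPM after culture, against 227 and 162 CPM (-1.46, adjusted p = 0.0139), so RNA of macrophage genes was present in both cultured libraries. Cx3cr1, the fractalkine receptor, rose from 11.9 and 9.60 CPM to 140 and 340 CPM (4.48, adjusted p = 0.00323). The C1qa call was lost without either fresh library or cultured replicate 2.

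The 2 cultured libraries differed over 4-fold in certain genes of antigen-presenting cells and of macrophages, which were chosen here after their values were seen. Other macrophage genes such as C1qa and Csf1r did not differ so, and the monocyte and macrophage list summed to 2818 and 4407 CPM in cultured cells (4761 and 4103 CPM in fresh cells). Cultured replicate 1 was high for MHC class II: Cd74, the invariant chain, read 1378 and 154 CPM (320 and 187 CPM in fresh cells), H2-Aa read 359 and 31.3 CPM (85.7 and 51.3 CPM) and Ciita, the master regulator of the class II genes, read 64.6 and 1.56 CPM (3.17 and 2.62 CPM). It was also high for Ccr7 (50.6 and 0.138 CPM), Fscn1 (54.8 and 0.104 CPM) and Ccl22 (151 and 0.588 CPM), which mature dendritic cells express. Cultured replicate 2 was high for Arg1 (0.382 and 111 CPM), Fn1 (2.67 and 259 CPM), Ccr2 (22.8 and 468 CPM), Spp1 (156 and 1307 CPM) and Gpnmb (146 and 938 CPM), genes of monocytes and macrophages, beside Tpsab1, Mrgprb2, Mcpt4, Mpo and Elane. Of these, only Spp1, Gpnmb, Tpsab1, Mrgprb2, Mcpt4 and Elane passed the test against fresh cells. The calls of Spp1 and Gpnmb, like those of the others, were lost without either fresh library. Of 16 genes of the dendritic cell and MHC class II list 2 rose and 5 fell, but 5 rose without cultured replicate 2, 1 rose without cultured replicate 1 or either fresh library, and 2 fell without fresh replicate 1. Summed over that list the cultured libraries read 2855 and 437 CPM and the fresh ones 1015 and 738 CPM, so fresh cells lay between them. The plasmacytoid gene Siglech had no counts in cultured cells against 12.1 and 9.95 CPM (at least 183-fold lower), and Flt3, the receptor of dendritic and lymphoid progenitors, fell from 48.8 and 42.5 CPM to 0.334 and 0 CPM (-8.21); both were no longer called without fresh replicate 1.

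**Figure D3:**
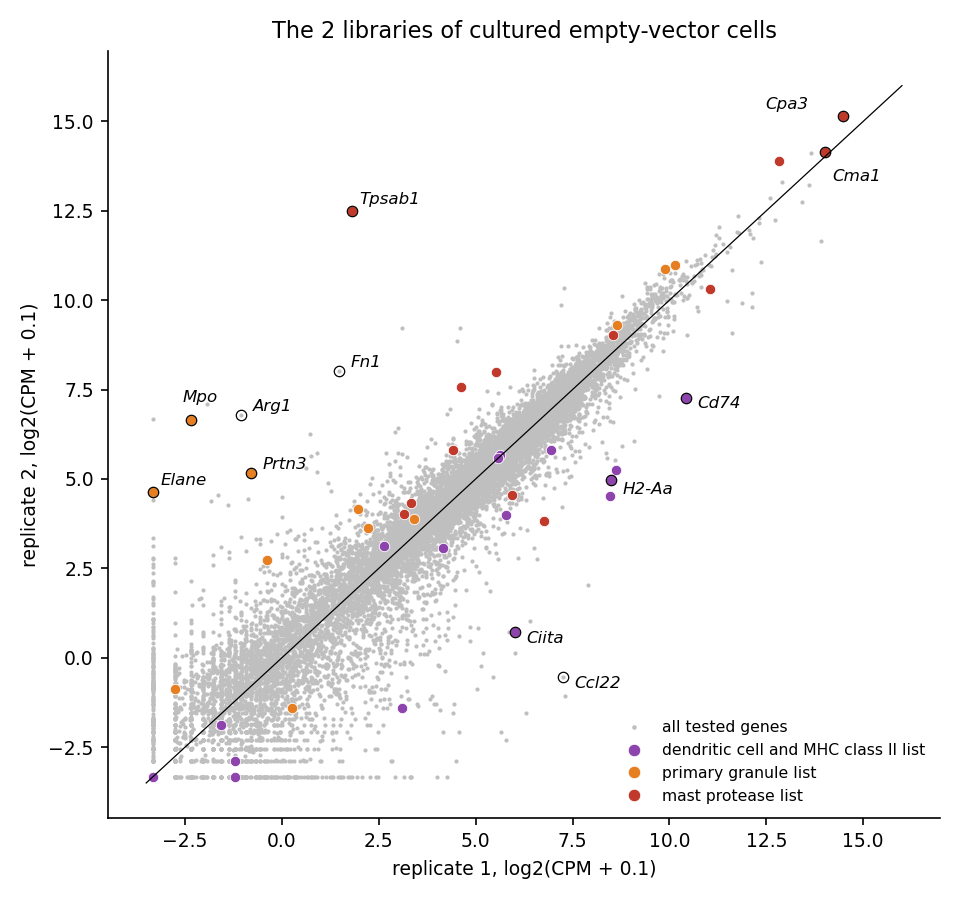
Log2 of CPM plus 0.1 in cultured replicate 2 against replicate 1 for the 15224 tested genes (grey), with members of 3 lists in colour and the line of equal values. Cd74, H2-Aa and Ciita lie below the line (high in replicate 1) and Mpo, Elane, Prtn3 and Tpsab1 above it (high in replicate 2), while Cpa3 and Cma1 lie near it.

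Erythroid RNA was nearly gone from the cultured cells. All 20 erythroid genes were tested and 20 fell (17 and 18 without fresh replicates 1 and 2), with a median of -8.71, and their sum went from 10460 and 7285 CPM to 182 and 129 CPM. Car1, the carbonic anhydrase of early red cells, had 1 count in the cultured group and 1235 and 1086 CPM in fresh cells, a ratio of 57400 (95% counting interval 10300 to 2270000). Slc4a1, the anion exchanger band 3, had none against 303 and 200 CPM, at least 4182-fold lower. Klf1, the master factor of the lineage, read 0.573 and 0.380 CPM against 215 and 199 CPM (-8.77, SE 0.39, adjusted p = 0.000418). The haemoglobin genes differed between the fresh libraries, with Hbb-bs at 1791 and 556 CPM and Hba-a2 at 1821 and 613 CPM, yet both cultured libraries lay far below. Hba-a1 and Hba-a2 are near-identical, as are Hbb-bs and Hbb-bt, so only their joint fall is clear. The receptor of erythropoietin, Epor, was less reduced, from 71.0 and 74.9 CPM to 8.46 and 6.26 CPM (-3.31), and the transferrin receptor Tfrc, which growing cells of any kind use, least (-1.41). Hbb-bs and Tfrc lost their calls without either fresh library, Tfrc also without cultured replicate 2.

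Megakaryocyte and platelet genes moved in both directions. Of 16, 8 fell and 5 rose (1 fell and 3 rose without either fresh library, 3 rose without cultured replicate 1), with a median of -1.64, whereas the summed level was higher in cultured cells (4300 and 4526 CPM against 674 and 503 CPM). The genes that rose were Itga2b, integrin αIIb, from 119 and 77.1 CPM to 1760 and 1764 CPM (4.17, adjusted p = 0.00136), F2r, the thrombin receptor, from 42.0 and 33.7 CPM to 1588 and 1630 CPM (5.41), Gp1ba (4.88), Vwf (2.46) and Gp5 (1.86). Those that fell included Gp1bb (-5.69) and Gp9 (-3.26). The chains of the platelet receptor for von Willebrand factor were thus split, with Gp1ba and Gp5 higher and Gp1bb and Gp9 lower. Pf4, platelet factor 4, fell from 86.2 and 56.2 CPM to 14.2 and 36.0 CPM (adjusted p = 0.0442). The calls of Vwf, Gp5, Pf4 and Gp9 were lost without either fresh library, the first 3 also without cultured replicate 1 and Gp5 without cultured replicate 2. Pf4 was also not called without either MOZ-TIF2 library.

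RNA of B lymphoid genes, present in the fresh cells, was nearly gone from the cultured ones. Of 16 B lymphoid genes 14 fell (14 without either fresh library), with a median of -11.52, or -8.89 with absent genes at their bound. Dntt, terminal transferase, had no counts against 287 and 267 CPM (at least 4608-fold lower), and Igkc, the κ constant region, none against 549 and 294 CPM (at least 7005-fold lower). Pax5 and Ebf1, which commit cells to the B lineage, had none against 65.9 and 66.1 CPM and 84.4 and 82.7 CPM. Cd79a, a chain of the B cell receptor, had 2 counts against 161 and 131 CPM, a ratio of 3590 (counting interval 993 to 29600). Il7r, used by B cell precursors but also by other cells, read 17.1 and 23.9 CPM against 15.5 and 18.0 CPM and was not called.

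Genes of T, NK and innate lymphoid cells were already low in the fresh cells and were lower still after culture. Of 17 tested genes 10 fell and 2 rose (2 fell without either fresh library, and 5 and 6 without cultured replicates 1 and 2), with a median of -5.18, or -4.66 with absent genes at their bound. The summed level was nonetheless higher in cultured cells (476 and 436 CPM against 180 and 184 CPM) through Id2, which is not confined to lymphocytes. Nkg7, a cytotoxic granule protein, fell from 77.2 and 90.7 CPM to 1.10 and 0.277 CPM (-6.98). Gata3, a factor of T cells and innate lymphoid cells, rose from 1.11 and 0.698 CPM to 12.4 and 14.0 CPM (3.88, adjusted p = 0.00383, not called without fresh replicate 2). Of 12 stromal and endothelial genes 11 fell and 1 rose (4 fell and none rose without either fresh library, 6 and 9 fell without cultured replicates 1 and 2), with a median of -5.76, or -4.66 at the bound. Cxcl12, the niche chemokine, fell from 139 and 38.2 CPM to 0.717 and 1.14 CPM (-6.55). Pecam1, which leukocytes also carry, was the gene that rose, from 50.4 and 49.2 CPM to 659 and 617 CPM (3.68, adjusted p = 0.0362), a call lost when any fresh or cultured library was left out.

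**Figure D4:**
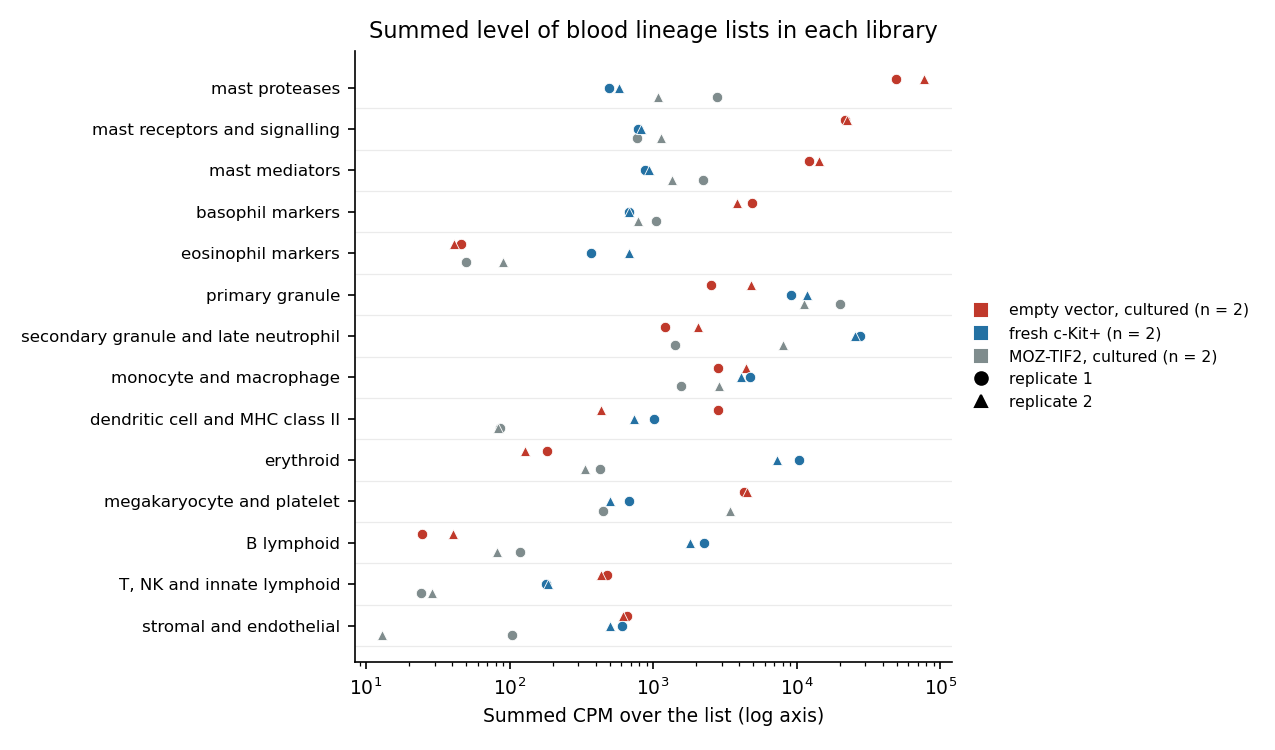
Summed CPM on a log axis of 14 lineage lists in each library, with cultured cells in red, fresh cells in blue, MOZ-TIF2 cells in grey, replicate 1 as circles and replicate 2 as triangles. The 3 mast cell lists stand higher in both cultured libraries than in either fresh one. The erythroid list reads 182 and 129 CPM in cultured cells against 10460 and 7285 CPM, and the B lymphoid list 24.7 and 40.3 CPM against 2281 and 1818 CPM.

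Several genes used to mark stem and progenitor cells were higher in the cultured cells. Of 25 listed genes 24 were tested, 11 rose and 4 fell (5 rose without either fresh library and 1 and 2 fell), with a median of 0.95. Ly6a, the Sca-1 antigen, read 919 and 494 CPM against 4.72 and 4.92 CPM (7.19, SE 0.95, adjusted p = 0.00363), and Cd34 read 437 and 1100 CPM against 137 and 121 CPM (2.58, adjusted p = 0.011). Sca-1 and CD34 are also carried by cultured mast cells, and Kit and Gata2 belong to both lists. Mecom, a regulator of stem cell renewal, read 71.9 and 22.4 CPM against 2.66 and 1.46 CPM (4.53, adjusted p = 0.00636). Hlf, a factor of quiescent stem cells, read 0.812 and 10.9 CPM against 17.3 in each fresh library and was not called (-1.56, adjusted p = 0.279), and Flt3 and Hoxa9 fell. The calls of Ly6a, Cd34 and Mecom were lost without either fresh library.

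Several HOXA genes of progenitors were low after culture. Of 18 HOXA and HOXB genes 12 were tested, 5 fell and 1 rose (2 and 3 fell and none rose without fresh replicates 1 and 2, none rose without cultured replicate 1, and 2 rose by DESeq2). The median was -1.45, but 0.40 with absent genes at their bound, so the list has no stable sign. Hoxa9 read 0.0478 and 0.657 CPM against 18.4 and 11.3 CPM (-5.26, adjusted p = 0.0042), and Hoxa7 had no counts against 13.1 and 8.32 CPM (at least 178-fold lower). Hoxa10 had no counts in cultured replicate 1 and 5.08 CPM in replicate 2, against 1.55 and 1.22 CPM, and was not called. Of 11 TALE homeobox genes, some of whose proteins pair with HOX proteins, 5 rose and 1 fell (2 rose without either fresh library, 3 without cultured replicate 1, and 2 fell with the 4 libraries alone). Meis1 rose from 21.5 and 12.5 CPM to 100 and 88.7 CPM (2.48, adjusted p = 0.00524), Meis3 by 3.69 and Pbx3 by 1.56, while Tgif2 fell (3 counts, ratio 184 with a counting interval of 62.6 to 898). The TALE median was -0.05. Of 12 genes of the retinal determination network, the subject of the series, 11 were tested, 2 rose and 3 fell (1 fell without either fresh library, 3 rose and 2 fell without cultured replicate 1, 2 fell without cultured replicate 2, 5 rose by DESeq2), with a median of 0.57. In the main fit the shares of this list that rose and fell were near those of all tested genes (21% and 19.7%). Eya1, the EYA phosphatase, had 2 counts in cultured cells against 3.39 and 2.15 CPM, a ratio of 67.3 (counting interval 18.1 to 565). Dach1, a cofactor, fell from 19.5 and 33.3 CPM to 1.43 and 3.04 CPM (-3.54), while the corepressors Ski (2.48) and Skil (2.09) rose. Meis3, Pbx3 and Eya1 lost their calls without either fresh library, Pbx3 also without cultured replicate 1.

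Cytokine receptor genes moved in both directions. Of 20 cytokine receptor genes 9 rose and 7 fell (4 and 5 fell without fresh replicates 1 and 2), with a median of 0.79. Csf2rb, the β chain shared by the interleukin-3, interleukin-5 and GM-CSF receptors, read 6780 and 4827 CPM against 53.2 and 62.3 CPM (6.65, SE 0.48, adjusted p = 0.000804). Csf2rb2, the mouse chain for interleukin-3 alone, read 12524 and 9563 CPM against 10.4 and 11.0 CPM (10.02), though these are close copies that the counting could split. The matching α chains differed, with Il3ra at 80.8 and 80.4 CPM against 19.3 and 19.1 CPM (2.07, adjusted p = 0.00146) and Csf2ra, the α chain for GM-CSF, at 21.6 and 18.7 CPM against 40.9 and 49.8 CPM (-1.17, adjusted p = 0.0159). Il4ra (5.61), Tgfbr1 (5.69) and Il2rg (2.67) rose, and the G-CSF receptor Csf3r (-4.45), Il6ra (-2.79) and Ifngr1 (-2.17) fell. The Csf2ra call was lost when any fresh or cultured library was left out.

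More genes that STAT5 and cytokine signals induce rose than fell. Of 18, 10 rose and 3 fell (5 and 4 rose without fresh replicates 1 and 2, 0 and 1 fell, and 1 fell without cultured replicate 1), with a median of 1.37. Socs1 read 118 and 108 CPM against 6.20 and 3.72 CPM (4.51, adjusted p = 0.00172), Cish read 284 and 265 CPM against 21.0 and 9.14 CPM (4.19, adjusted p = 0.0183) and Ccnd2, cyclin D2, read 1114 and 993 CPM against 122 and 129 CPM (3.07, SE 0.23, adjusted p = 0.000864). Myc, also a cytokine target, went the other way, from 248 and 205 CPM to 46.9 and 112 CPM (-1.51, adjusted p = 0.0391). Of 22 cytokine and chemokine genes 20 were tested, 11 rose and none fell (3 rose without either fresh library, and 2 fell without cultured replicate 1 and 2 by DESeq2), with a median of 2.77. Lif read 96.4 and 94.5 CPM against 0.959 and 0.407 CPM (7.15, SE 0.47, adjusted p = 0.000714), and the monocyte chemokine Ccl2 read 126 and 128 CPM against 3.32 and 0.757 CPM (5.99). Cish and Myc lost their calls without either fresh library or cultured replicate 1.

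Of the immediate early genes, which marrow dissociation and handling are known to induce, more fell than rose. Of 21, 9 fell and 2 rose (0 and 1 fell and none rose without fresh replicates 1 and 2, 6 and 3 fell and 1 rose without cultured replicates 1 and 2, 4 rose with the 4 libraries alone and by DESeq2), with a median of -1.22. Fos read 38.5 and 4.15 CPM against 769 and 612 CPM (-5.02, adjusted p = 0.0192), and Jun 170 and 77.4 CPM against 749 and 391.9 CPM (-2.21, adjusted p = 0.0227), while Fosl2 rose from 16.6 and 13.7 CPM to 99.0 and 133 CPM (2.93). Fos, Jun and Fosl2 were no longer called without either fresh library, Jun and Fosl2 also without cultured replicate 2. Of 20 interferon-stimulated genes 3 fell (1 without either fresh library, 2 without either cultured library, 6 with the 4 libraries alone and 6 by DESeq2) and none rose, with a median of -0.96; 2 rose without cultured replicate 2, 1 with the 4 libraries alone and 2 by DESeq2. In the main fit the shares of this list that rose and fell lay below those of all tested genes (21% and 19.7%). Ifit2 fell from 16.4 and 25.2 CPM to 3.15 and 2.52 CPM (-2.87, edgeR adjusted p = 0.00364).

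Cell cycle genes were lower in the cultured cells, those of DNA replication for most members. Of 26 replication and G1/S genes 22 fell and none rose (3 fell without either fresh library, 15 without cultured replicate 1), with a median of -1.78. Ccne1, cyclin E1, read 8.74 and 11.2 CPM against 87.6 and 99.8 CPM (-3.23, SE 0.23, adjusted p = 0.000787), and Mcm2, of the replicative helicase, read 96.5 and 207 CPM against 430 and 466 CPM (-1.56, adjusted p = 0.021). Of 24 mitosis genes 7 fell and none rose, with a median of -1.12, but that count was 0 without either fresh library, 3 and 19 without cultured replicates 1 and 2, 16 by DESeq2 and 19 with library totals as the scale. Mki67, the Ki-67 antigen, read 264 and 159 CPM against 477 and 244 CPM, with overlapping groups and no call (-0.77, adjusted p = 0.3). Cultured replicate 1 was the lower of the cultured pair for the summed replication list (1329 and 2640 CPM, fresh 5723 and 6264 CPM) and the summed mitosis list (1282 and 2263 CPM, fresh 3674 and 3768 CPM), and all cultured sums lay below all fresh ones. The Mcm2 call was lost without either fresh library.

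Cyclins, CDKs and their inhibitors moved in both directions. Of 17 cyclins, CDKs and inhibitors 7 rose and 3 fell (3 and 2 rose and 1 fell without fresh replicates 1 and 2, 1 fell without cultured replicate 1 and 2 without replicate 2), with a median of 0.31, or -0.04 with library totals as the scale. Cdkn1a, which encodes p21, read 349 and 203 CPM against 20.7 and 12.8 CPM (4.05, SE 0.61, adjusted p = 0.00536). Cdkn2a, which encodes p16 and p19ARF, read 91.6 and 34.8 CPM against 2 counts in fresh cells, a ratio of 902 (counting interval 249 to 7450), and its neighbour Cdkn2b read 13.3 and 3.35 CPM against none. Cdk4, the partner of the D cyclins, fell from 418 and 382 CPM to 143 and 216 CPM (-1.16, adjusted p = 0.03). Of 24 p53 targets 23 were tested, 14 rose and none fell (5 and 4 rose without fresh replicates 1 and 2, 1 fell with library totals as the scale), with a median of 1.63. Mdm2, which limits p53, read 147 and 89.3 CPM against 44.3 and 47.2 CPM (1.37, adjusted p = 0.0121), and the death genes Pmaip1 (3.64) and Bbc3 (3.07) rose. Bax, another of them, was not called (0.82, adjusted p = 0.0651). Of 16 genes of the BCL2 family 15 were tested, 5 rose and none fell (none rose without either fresh library, 3 without cultured replicate 1, 8 with the 4 libraries alone and by DESeq2), with a median of 1.07. Bcl2 itself read 208 and 201 CPM against 27.1 and 27.5 CPM (2.91, adjusted p = 0.0128), and Bcl2l1 72.6 and 76.8 CPM against 37.0 and 29.4 CPM (1.17, adjusted p = 0.0201), so both protective and death-promoting members rose. Cdkn2a, Cdkn2b, Cdk4, Mdm2, Pmaip1, Bbc3, Bcl2 and Bcl2l1 lost their calls without either fresh library and Cdkn1a without replicate 2 of these. Cdk4 was also lost without cultured replicate 1 and Bcl2l1 without either cultured library.

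Many genes of ribosome biogenesis fell. Of 25 genes of the MYC network and ribosome biogenesis 14 fell and 3 rose (1 fell and 1 rose without either fresh library, 5 and 10 fell and 1 rose without cultured replicates 1 and 2), with a median of -1.15. Nop56, a nucleolar protein, read 52.1 and 65.3 CPM against 250 and 217 CPM (-1.99, SE 0.27, adjusted p = 0.00381). The 3 that rose were Mycn (1.88) and the MYC antagonists Mxd4 (1.83) and Mnt (1.11); the calls of Mycn and Mnt were lost when any fresh or cultured library was left out. Of 25 cytosolic ribosomal protein genes 5 fell, a share near the 19.7% of all tested genes, and none rose, with a median of -0.57, a count that was 0 without either fresh library, 1 and 9 without cultured replicates 1 and 2, 8 with the 4 cultured and fresh libraries alone, 13 by DESeq2 and 15 with library totals as the scale. Rps6 read 41.9 and 58.3 CPM against 107 and 101 CPM (-1.05, adjusted p = 0.0139), lost without either fresh library or cultured replicate 1.

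Of 24 cholesterol synthesis genes 18 rose and 1 fell (9 and 10 rose and none fell without fresh replicates 1 and 2, none fell without cultured replicate 1), with a median of 1.64. Lss, lanosterol synthase, read 103 and 132 CPM against 14.3 and 14.8 CPM (3.01, SE 0.27, adjusted p = 0.00122). Msmo1, a sterol oxidase further along the pathway, read 106 and 104 CPM against 13.8 and 14.0 CPM (2.92, SE 0.19, adjusted p = 0.000707). Hmgcs1, the synthase that feeds the pathway, read 171 and 168 CPM against 32.6 and 31.6 CPM (2.40, SE 0.19, adjusted p = 0.000963). For these genes the replicates lay close together and the groups did not overlap. Pmvk was the gene that fell (-1.19, lost without either fresh library or cultured replicate 1). The promoter of Hmgcs1 is shown because it carries the letters TCACNCCAC, a form of the sterol response element that SREBP factors bind, at -137 to -129 (capitals). It was the 1 gene of 16 on the list with a window that held them, of 24 listed, so the letters are not a shared feature of the list's windows; 346 of 32851 promoter windows (1.05%) hold these letters on either strand. 
Hmgcs1, chr13:119690101-119690350, plus strand, GRCm38.p6: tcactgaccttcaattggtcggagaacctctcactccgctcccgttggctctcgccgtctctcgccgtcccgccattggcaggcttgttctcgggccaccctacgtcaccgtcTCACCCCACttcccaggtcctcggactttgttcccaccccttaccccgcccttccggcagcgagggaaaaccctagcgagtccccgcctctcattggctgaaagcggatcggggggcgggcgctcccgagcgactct
Of 20 genes of fatty acid synthesis and lipid droplets 13 rose and 2 fell (5 and 7 rose and 1 fell without fresh replicates 1 and 2), with a median of 1.07. Scd2, a fatty acid desaturase, read 1084 and 1455 CPM against 133 and 154 CPM (3.15, SE 0.29, adjusted p = 0.00135), and Dgat2, which makes storage fat, fell from 22.3 and 23.2 CPM to 0.382 and 0.622 CPM (-5.46).

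Glycolysis and respiratory chain genes are given together. Of 22 glycolysis and hypoxia genes 8 rose and 2 fell (3 rose and none fell without either fresh library, none fell without cultured replicate 1 and 4 rose without replicate 2, 4 rose with library totals as the scale), with a median of 0.75. Slc2a1, the glucose transporter GLUT1, read 131 and 215 CPM against 9.15 and 8.90 CPM (4.26, SE 0.32, adjusted p = 0.000881), while Ldha, lactate dehydrogenase, was not called (0.64, adjusted p = 0.225). Of 20 respiratory chain genes 3 fell and none rose (1 rose without cultured replicate 2, none fell without either fresh library, 6 without cultured replicate 1, 5 with the 4 libraries alone, 6 by DESeq2 and 10 with library totals), with a median of -0.50. In the main fit the share of respiratory chain genes that fell lay below the 19.7% of all tested genes. The mitochondrially encoded mt-Co1 read 15455 and 3247 CPM in the cultured libraries around 7268 and 6711 CPM in fresh cells and was not called. Uqcrc1, of complex III, fell from 308 and 293 CPM to 95.1 and 138 CPM (-1.36, adjusted p = 0.00986, lost without either fresh library).

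Many lysosomal genes rose. Of 24, 14 rose and 1 fell (6 rose and none fell without either fresh library, none fell without cultured replicate 2), with a median of 1.00. Ctsd, cathepsin D, was among the 15 genes with most counts in cultured cells, at 5125 and 4550 CPM against 673 and 513 CPM (3.03, SE 0.33, adjusted p = 0.00201). Cd63, a membrane protein of lysosomes and mast cell granules, read 1739 and 1631 CPM against 138 and 148 CPM (3.56), and Npc1, the cholesterol exporter, 207 and 159 CPM against 32.3 and 35.2 CPM (2.44). Of 10 genes of the aryl hydrocarbon receptor (AHR) pathway, a sensor of dietary and microbial indoles, 5 rose and 1 fell (4 rose without either fresh library, none fell without fresh replicate 1, fresh replicate 2 or cultured replicate 2, and 8 rose by DESeq2), with a median of 3.32. Ahr read 137 and 166 CPM against 0.959 and 1.51 CPM (6.92, SE 0.33, adjusted p = 0.000418), its repressor Ahrr 83.0 and 54.4 CPM against 0.295 and 0.408 CPM (7.57) and its target Tiparp 175 and 104 CPM against 8.70 and 9.84 CPM (3.91). Cyp1a1, the target gene of liver and gut, was the one that fell, with no counts in cultured cells and 0.738 and 1.16 CPM in fresh cells (at least 15.8-fold lower).

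**Figure D5:**
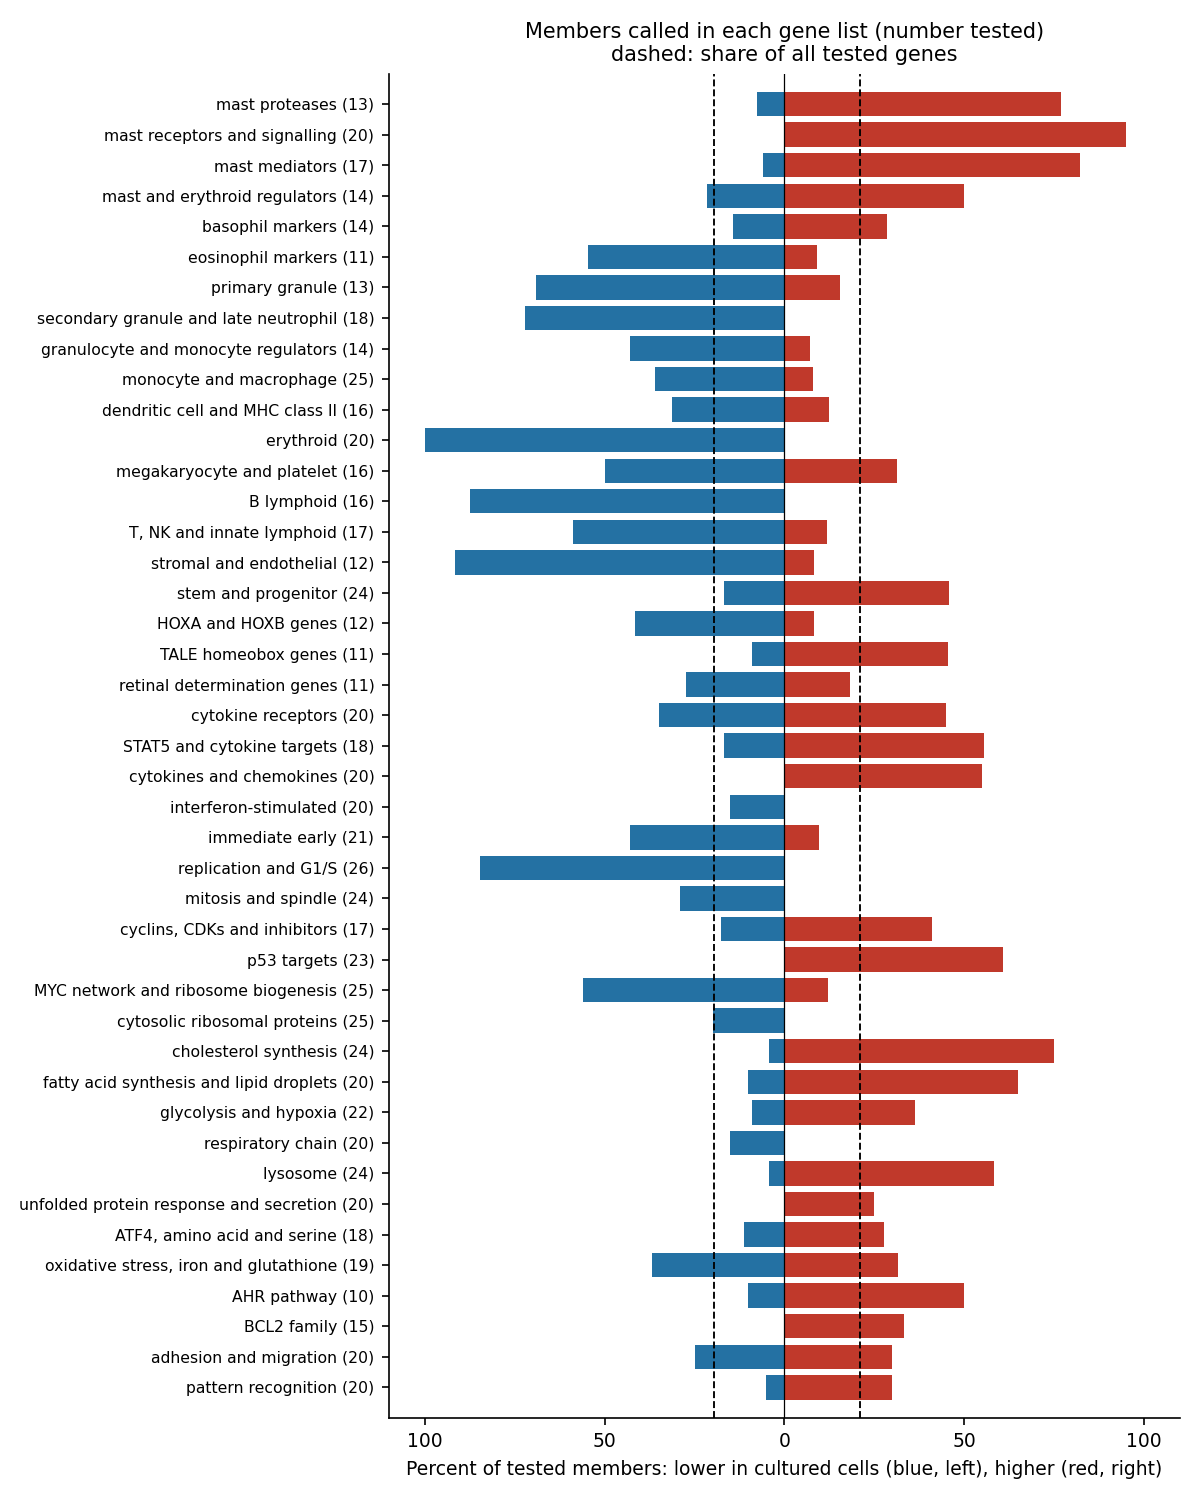
Percent of the tested members of each of 43 gene lists called higher (red, right) or lower (blue, left) in cultured cells, with the number tested in brackets and dashed lines at the shares of all tested genes (21% higher, 19.7% lower). The mast protease, receptor and mediator lists reach furthest to the right. The erythroid, stromal, B lymphoid and replication lists reach furthest to the left. The unfolded protein response list has 5 of 20 members higher and none lower.

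MOZ-TIF2 cells, which were transduced, sorted and grown in the same way, held less mast cell RNA than the cultured empty-vector cells. A difference between MOZ-TIF2 and fresh cells was not tested. Their summed protease list read 2811 and 1082 CPM, above the fresh cells (492 and 580 CPM) and below the cultured ones, through cathepsin G (Ctsg, 2753 and 1018 CPM), which neutrophil precursors also express. Their mediator sum was 2244 and 1347 CPM, again above fresh cells (880 and 934 CPM), with Srgn at 1833 and 827 CPM. The receptor sum was 776 and 1130 CPM against 780 and 818 CPM in fresh cells. The genes more particular to mast cells were low. In them Cpa3 read 0.273 and 1.52 CPM, Cma1 0.109 and 0.758 CPM, Fcer1a 0.0273 and 0.204 CPM, Kit 41.0 and 29.0 CPM and Gata2 1.42 and 2.36 CPM, so for Cpa3, Fcer1a, Kit and Gata2 they lay below the fresh cells as well. Against cultured empty-vector cells, 4486 genes differed in edgeR (29.5%), with 13.3% higher and 16.2% lower in MOZ-TIF2 cells. Among the mast cell lists 10 of 13 proteases were lower and 1 higher, 17 of 20 receptor and signalling genes were lower and 1 higher, and 15 of 17 mediator genes were lower. This comparison shares its cultured libraries with the one above, so the 2 are not independent. Its total was 2847 without cultured replicate 1, and 2498 and 2411 without fresh replicates 1 and 2.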

How the data were processed

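The authors deposited estimated counts per gene for 6 bulk libraries (2 cultured empty-vector, 2 fresh, 2 MOZ-TIF2). Salmon 0.13.0 and the build GRCm38 are named, per the submitters' processing notes, without saying which step used them, and how transcripts were summed to genes is not given in the sources used here. Libraries were made from poly(A) RNA with a strand-specific kit, per the labels' protocols. Of the deposited values 20.6 to 27.4% per library were not whole, and all were rounded. Library totals ran from 12397486 to 34463851 counts, and 0 columns of samples were left unmapped.

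Genes were kept by edgeR's filterByExpr, scaled by TMM and fitted with edgeR 4.0.16 (R 4.3.3, limma 3.58.1), quasi-likelihood F test, two-sided, over all 6 libraries in 3 groups, with no replicate block. Adjusted p-values are Benjamini-Hochberg over 15224 genes and a gene is called under 0.05. Intervals and floors (3 counts, 95%) cover counting error only. Alternatives were DESeq2 1.42.0, other scalings and filters, unrounded counts, the 4 compared libraries alone, a replicate block, other thresholds and leaving out each library.

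The members and the 44 gene lists were chosen with earlier results of these data known. Genes named are key members of the lists, the 12 largest rises and 12 largest falls at 50 CPM or more without overlap, the 15 with most counts per group, up to 4 called members with the largest difference per list at 10 CPM or more, and members going against their list. Other genes named, such as Gata1, Syk, Slc18a2, Cyp11a1 and those that differed between the cultured replicates, were chosen after their values were seen.

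Whether replicate numbers pair the samples was checked by the correlation of deviations of same-numbered libraries, which was -0.008, -0.051 and -0.076 for the 3 pairs of groups, so the numbers were not taken as pairs. Other samples of the series were not used here. A few genes are not reported here.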

Additional observations from a re-analysis of the deposited data

How the results depend on the processing

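The genes called higher and lower in cultured cells (3195 and 3003) numbered 1448 and 980 at an adjusted p under 0.01. Leaving out 1 library gave 740 to 3543 higher and 519 to 3326 lower, lowest without fresh replicate 1 in both directions. MOZ-TIF2 against cultured cells gave 4486 genes, 1836 at an adjusted p under 0.01 and 2411 to 4278 with 1 library left out. With the replicate block the counts were 2526 higher, 2152 lower and 3284. Scalings, filters, DESeq2, unrounded counts, 4 libraries and a log2 difference over 1 kept each count within 1.5 times. The 4 libraries alone give no MOZ-TIF2 value.

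Of 320 named genes 275 were called. Over 4791 values under alternatives 385 lost the call, 65 gained one and 3 reversed. Without fresh replicate 1 and fresh replicate 2, 136 and 131 calls were lost, without cultured replicate 1 and 2, 49 and 33, with the replicate block 13 (Elane and Prtn3 among them), and under each other setting at most 5. Hoxa10 went from 0.92 to -8.08 without cultured replicate 2 (1.89 without replicate 1), Fn1 from 2.09 to -3.52 without cultured replicate 2 (3.09 without replicate 1), and mt-Co1 from 0.42 to -1.09 without cultured replicate 1 (1.15 without replicate 2). All 3 genes differ widely between the cultured replicates. Leaving out a fresh library leaves that group with 1 sample, which is assumed to vary like the other groups. Over a group, 3 counts correspond to 0.0602 CPM in cultured and 0.0976 CPM in fresh cells, so lower levels were not detectable.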

Other observations

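Several genes with large rises belong to none of the lists above and lie outside the usual accounts of mast cell granules. Cyp11a1, the side-chain cleavage enzyme that starts steroid hormone synthesis, read 3032 and 2879 CPM in cultured cells against 1.48 and 1.63 CPM in fresh cells (log2 difference 10.89, SE 0.67, edgeR adjusted p = 0.000644). Anpep, aminopeptidase N, read 3148 and 1840 CPM against 2.95 and 1.98 CPM (9.99, adjusted p = 0.000492). Rprm, the reprimo gene named as a p53-linked cell cycle inhibitor, read 713 and 975 CPM with none in fresh cells, at least 8650-fold higher. Cobl, an actin nucleator, read 474 and 503 CPM with none in fresh cells (at least 5007-fold higher). MOZ-TIF2 cells kept in the same way read 392.2 and 961 CPM of Cyp11a1 but had no counts of Cobl. Fgf2, a growth factor, read 71.5 and 87.5 CPM with none in fresh cells.

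Iron handling and oxidative stress genes moved in both directions. Of 19 genes 6 rose and 7 fell (1 rose and 2 and 3 fell without fresh replicates 1 and 2, 4 rose without cultured replicate 1, 4 fell without either cultured library), with a median of -0.24 against -0.03 for all genes. Slc40a1, the iron exporter ferroportin, fell from 218 and 233 CPM to 6.78 and 5.70 CPM (-5.17, edgeR adjusted p = 0.00107). The ferritin light chain Ftl1 rose from 1990 and 1486 CPM to 11062 and 6918 CPM (2.37, edgeR adjusted p = 0.00633), a call lost without either fresh library. Of 20 genes of the unfolded protein response 5 rose and none fell (1 and 2 rose without fresh replicates 1 and 2, 10 with the 4 libraries alone, 1 fell by DESeq2 and with library totals as the scale), with a median of 0.70. In the main fit the share of this list that rose was near the 21% of all tested genes. Xbp1, a transcription factor of secretory cells, read 331 and 344 CPM against 74.8 and 75.1 CPM (2.17, edgeR adjusted p = 0.00213).

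Of 18 genes of the ATF4 and amino acid list 5 rose and 2 fell (1 rose and none fell without either fresh library, 3 rose without either cultured library and with library totals as the scale, 1 and 4 fell without cultured replicates 1 and 2), with a median of -0.26. Phgdh, the first enzyme of serine synthesis, fell from 216 and 187 CPM to 9.32 and 49.1 CPM (-2.79, edgeR adjusted p = 0.027), a call lost without either fresh library. Of 20 adhesion and migration genes 6 rose and 5 fell (2 rose, and 3 and 2 fell, without fresh replicates 1 and 2, 3 fell without cultured replicate 2), with a median of 0.42. Cxcr4, the receptor of the niche chemokine, fell from 92.2 and 104 CPM to 9.08 and 13.1 CPM (-3.14, edgeR adjusted p = 0.001). Itgb7, the integrin chain that brings mast cell progenitors to the gut, rose from 28.2 and 21.2 CPM to 535 and 588 CPM (4.51, edgeR adjusted p = 0.0107). Without either fresh library the Itgb7 call was lost. Of 20 pattern recognition genes 6 rose and 1 fell (none rose without either fresh library, 2 fell with the 4 libraries alone), with a median of 1.05. Nod1, a sensor of bacterial peptidoglycan, fell from 17.1 and 14.7 CPM to 0.955 and 1.28 CPM (-3.82, adjusted p = 0.00321). Of 4 tested sex-linked genes 3 fell (none without fresh replicate 1 or either cultured library).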
